A study of Homo sapiens with 4 samples.

Results

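The genes examined here were HMGCS1, SQLE, IDI1, FDFT1, FDPS, INSIG1, SREBF2 and AACS, 8 genes of cholesterol synthesis and its control, out of 67008 genes listed in the count table. They were taken by symbol, matched to the Ensembl gene identifier, and all 8 had enough reads to be tested among the 14303 genes that passed the filter on low counts. RNA-sequencing was performed on the oral cancer line SAS, derived from a human squamous carcinoma of the tongue, that had been infected with virus carrying an shRNA. The control libraries (Ctrl, n = 2) carried shLuc, directed against luciferase, and the knockdown libraries (shSTAU1, n = 2) carried an shRNA directed against the double-stranded RNA-binding protein STAU1. All 4 libraries were labelled wild type in genotype, received virus and were prepared by exome capture of total RNA. A single STAU1 shRNA was used, and the labels do not say whether replicates came from separate cultures, so the p-values measure the spread between these libraries, which may be technical.

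Cells make cholesterol from acetyl-CoA through the mevalonate pathway, in which isoprenoid units are joined to squalene, squalene is oxidized and closed to a ring, and the ring is trimmed and reduced to cholesterol. The pathway is held under feedback by SREBP-2, a transcription factor anchored in the endoplasmic reticulum. When sterols are scarce, its escort protein SCAP carries it to the Golgi, where proteases release the active fragment, and INSIG proteins hold the complex back when sterols are plentiful. The fragment binds sterol regulatory elements in promoters, often beside a CCAAT box that NF-Y binds, and raises the synthesis enzymes together with INSIG1 and SREBF2 itself.

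Total counts ran from 32206655 to 36301574 per library, and the 8 genes together took 0.0686% to 0.0913% of them. STAU1 had 249 and 251 CPM (counts scaled per library, with TMM factors, to a common total) in Ctrl and 41.6 and 41.5 CPM in shSTAU1, which is 16.6% of the control level (log2 fold change -2.59, standard error 0.13, quasi-likelihood test in edgeR with adjusted p = 0.00103). The labels also name a mouse fibroblast line beside an oral cancer line. Of 5 epithelial markers all were abundant, from 474 CPM for the cadherin CDH1 to 5488 CPM for the keratin KRT5 in single libraries. Of 5 fibroblast markers COL3A1 and LUM had at most 1 count in any library, PDGFRA stayed under 0.6 CPM, COL1A2 under 4 CPM and COL1A1 reached 20.2 CPM. KRT5 was higher in shSTAU1 (log2 fold change 0.65, adjusted p = 0.0408, edgeR), and COL1A1 was lower, with 15.7 and 20.2 CPM in Ctrl and 7.84 and 6.25 CPM in shSTAU1 (log2 fold change -1.35, adjusted p = 0.036, edgeR), and the part of either in the results was not tested.

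To show the element through which SREBP-2 acts, the promoters of the members were read from RefSeq on GRCh38.p14, as windows from 250 bases before to 50 bases after each annotated start. Windows were found for 6 of the 8 genes, 9 windows in all. The sterol regulatory element was searched on both strands as TCACNCCAC, which 1.13% of the 35116 windows of this length hold, and the CCAAT box as CCAAT on both strands, which 34.6% hold. The element was found in 1 of the 9 windows (11.1%), that of SREBF2. The CCAAT box was found in 6 of the 9 windows (66.7%), which belong to 5 members. The SREBF2 window is shown for the match of the element, which starts 133 bases before the annotated start, in capitals, with a CCAAT box read on the other strand (attgg) shortly after it. Those of INSIG1 and HMGCS1 are shown for their CCAAT boxes, read on the other strand and set in capitals.
SREBF2 (chr22:41832947-41833006, plus strand): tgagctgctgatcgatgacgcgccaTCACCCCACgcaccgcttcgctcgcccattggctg
INSIG1 (chr7:155297681-155297740, plus strand): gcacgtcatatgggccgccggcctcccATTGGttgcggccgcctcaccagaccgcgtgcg
HMGCS1 (chr5:43313480-43313539, minus strand): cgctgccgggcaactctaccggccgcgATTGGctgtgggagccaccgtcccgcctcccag
A match is a description of these letters, and the absence of one says only that they do not occur in that window.

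The first question was whether the members as a group differed after STAU1 knockdown. None of the 8 passed an adjusted p of 0.05, beside 2.60% of all genes tested (1.13% higher and 1.48% lower), and 0 passed with DESeq2 (which gave FDFT1 no adjusted p) or limma-voom, beside 10.1% and 2.54% of all genes. At an unadjusted p under 0.05 there was 1 member, AACS, in edgeR, where 24.5% of all tested genes lay, and 1 with limma-voom and 0 with DESeq2. Their median log2 fold change was -0.07, with 5 below 0 and 3 above, beside a median of 0.0059 over all tested genes. The groups did not overlap for 2 members, HMGCS1 and AACS, both with lower values in shSTAU1, and 28% of all tested genes had both shSTAU1 libraries below both Ctrl libraries and 28.5% above. The 2 of 8 members that lay lower without overlap are thus a share near that of all genes. The replicate libraries weigh on the count: without shSTAU1 replicate 1 the edgeR test called 3 members, HMGCS1, INSIG1 and SREBF2, all lower, but also 18.5% of all genes tested in that fit. For a single gene, exact permutation of 2 against 2 libraries reaches a two-sided p of 0.333 at best. The edgeR test is not a permutation test, and it shares the spread between genes.

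**Figure D1:**
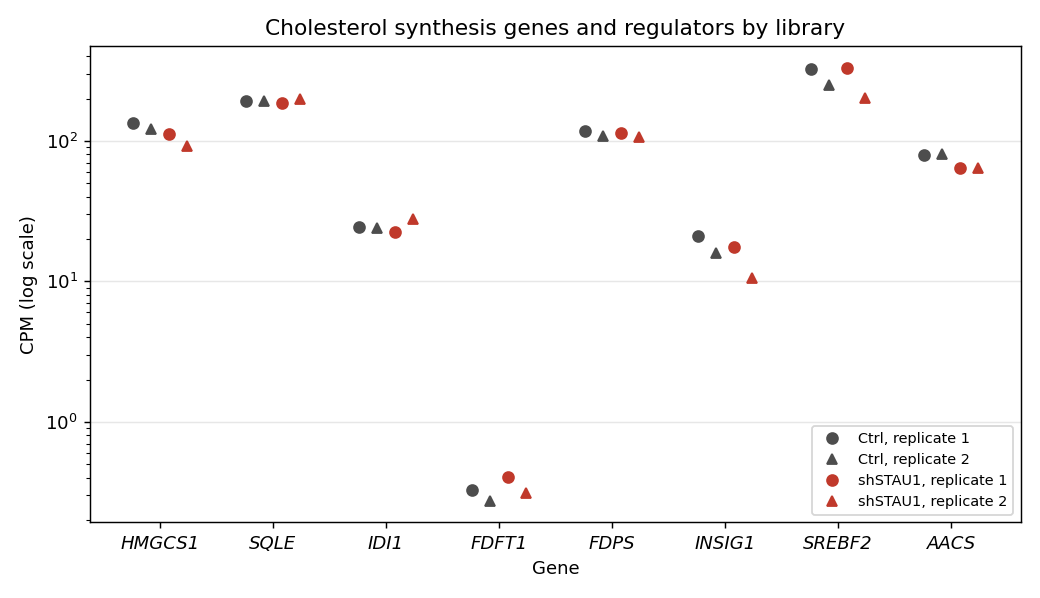
CPM on a log axis for the 8 genes in each library, with Ctrl in grey, shSTAU1 in red, circles for replicate 1 and triangles for replicate 2. AACS and HMGCS1 have both red points below both grey points, and FDFT1 lies near 0.3 CPM. SREBF2 and INSIG1 have both circles above both triangles, while their groups overlap.

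Levels were compared between genes per length, as CPM per kilobase of the longest transcript in GENCODE 29. In Ctrl the order was SQLE (65.0 ± 0.060 CPM per kilobase, SD, n = 2), FDPS (56.3 ± 3.16), SREBF2 (50.7 ± 9.27), HMGCS1 (36.5 ± 2.33), AACS (12.0 ± 0.022), IDI1 (7.17 ± 0.11), INSIG1 (6.15 ± 1.24) and FDFT1 (0.113 ± 0.014). FDPS and SREBF2 overlapped between libraries, at 54.0 to 58.5 and 44.1 to 57.3 CPM per kilobase, and the other neighbours did not. The order of the means in shSTAU1 was the same, from 65.2 ± 2.77 for SQLE to 0.134 ± 0.024 for FDFT1, and there SREBF2 spread from 35.7 to 58.3 CPM per kilobase and overlapped FDPS, at 53.2 to 56.4. The libraries were enriched by exome capture, and the captured length of each transcript was not used here, so this order holds for the captured reads only.

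HMGCS1 and AACS gave the lowest log2 fold changes among the 6 enzymes of the set. HMGCS1 (ENSG00000112972, chromosome 5 of GRCh38 from 43289395 to 43313512, minus strand) is the cytosolic synthase that joins acetyl-CoA and acetoacetyl-CoA to HMG-CoA. It had 134 and 122 CPM in the Ctrl libraries and 112 and 92.5 CPM in the shSTAU1 libraries. Both knockdown libraries were thus below both controls, with shSTAU1 replicate 2 the lowest. The log2 fold change was -0.32 (standard error 0.15, 95% interval -0.66 to 0.014, adjusted p = 0.22, edgeR), or 79.9% of the control level, and did not pass the test. It passed only when shSTAU1 replicate 1 was left out (-0.46, adjusted p = 0.0314, edgeR) among the fits without 1 library.

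AACS (ENSG00000081760, chromosome 12 from 125065379 to 125143333, plus strand) activates acetoacetate to acetoacetyl-CoA in the cytosol and so feeds ketone body carbon into lipid synthesis. It had 79.8 and 80.1 CPM in Ctrl and 64.1 and 64.3 CPM in shSTAU1. The means were 79.9 ± 0.15 and 64.2 ± 0.15 CPM (SD, n = 2 each), so the libraries of a group lay close together and the groups did not overlap. The log2 fold change was -0.32 (standard error 0.13, 95% interval -0.61 to -0.02). Its unadjusted p was 0.0395 and its adjusted p 0.181 in edgeR's quasi-likelihood test, in which the spread is shared with other genes of similar expression. With the length and GC correction the log2 fold change was -0.20 and the unadjusted p was 0.16 (adjusted p = 0.377, same test). The unadjusted p was thus under 0.05 in the main fit but not after that correction. With library totals in place of TMM the log2 fold change was -0.37 (adjusted p = 0.133, same test).

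The enzymes of the isoprenoid and squalene steps showed no difference beyond the spread between replicates. IDI1, the isomerase that interconverts the 5-carbon isoprenoid units, had 24.4 and 23.9 CPM in Ctrl and 22.6 and 27.6 CPM in shSTAU1. FDPS, the synthase that makes farnesyl diphosphate, had 118 and 109 CPM in Ctrl and 114 and 107 CPM in shSTAU1. SQLE, the squalene epoxidase that catalyses the first oxygenation step and is rate-limiting in the later pathway, had 193 and 192 CPM in Ctrl and 187 and 199 CPM in shSTAU1. The groups overlapped for all 3 genes. The log2 fold changes were 0.06 for IDI1 (95% interval -0.34 to 0.46), -0.04 for FDPS (95% interval -0.33 to 0.26) and 0.0045 for SQLE (95% interval -0.28 to 0.28). Their adjusted p were 0.869, 0.886 and 0.986 in edgeR's quasi-likelihood test. The sign of SQLE turned when library totals replaced TMM (-0.048). The intervals put SQLE between 82.6% and 122% and FDPS between 79.3% and 120% of the control level. FDPS has 8 annotated pseudogenes, which together held 7 to 39 counts per library, at most 1.09% of the FDPS count.

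FDFT1, the squalene synthase that commits farnesyl diphosphate to sterols, had 11 and 9 counts in Ctrl and 14 and 11 counts in shSTAU1, or 0.275 to 0.402 CPM. This lay far below the enzymes on either side of it in the pathway, FDPS and SQLE, and the cause was not tested. The exact Poisson intervals of the 4 counts, which cover counting error only, ran from 4.12 to 23.5 and overlapped in every pair. The log2 fold change of 0.24 had a standard error of 0.63 and a 95% interval from -1.23 to 1.71 (adjusted p = 0.845, edgeR), so a difference of this gene was not detectable at these counts. Low counts of a similar order were found for CYP51A1, the lanosterol demethylase, with 28 to 39 counts, and for GGPS1, the geranylgeranyl diphosphate synthase, with 32 to 49 counts. FDFT1, CYP51A1 and GGPS1 were set together after their values were seen.

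**Figure D2:**
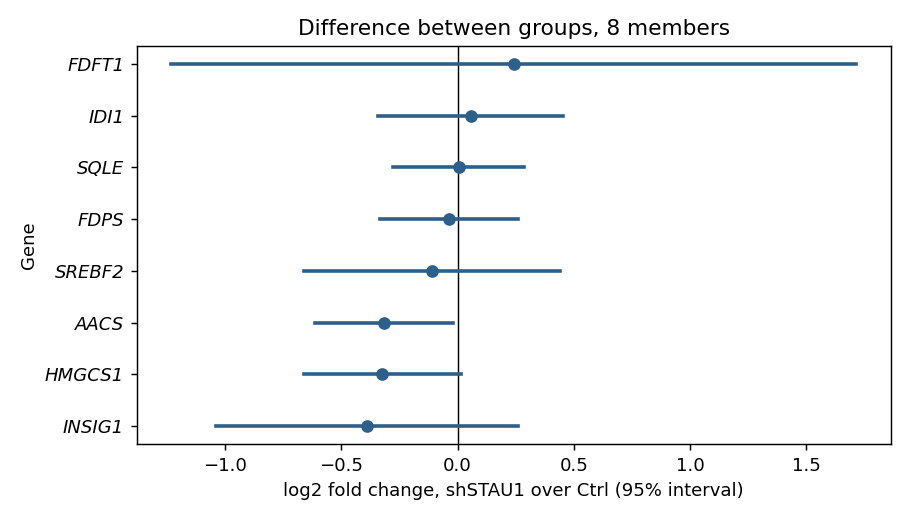
Log2 fold change of each member, shSTAU1 over Ctrl, as points with 95% intervals from edgeR's quasi-likelihood fit. The interval of AACS alone lies wholly below 0, and that of FDFT1, from -1.23 to 1.71, is the widest.

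The members of the feedback loop differed more between replicates than between groups. SREBF2 (ENSG00000198911, chromosome 22 from 41833079 to 41907308, plus strand), which encodes SREBP-2 and whose promoter holds the element shown above, had 326 and 252 CPM in Ctrl and 332 and 203 CPM in shSTAU1. INSIG1 (ENSG00000186480, chromosome 7 from 155297776 to 155310235, plus strand), which encodes the protein that retains SCAP in the endoplasmic reticulum, had 21.1 and 15.9 CPM in Ctrl and 17.7 and 10.5 CPM in shSTAU1. For both genes the replicate 2 library was the lower of its group in Ctrl and in shSTAU1, and the groups overlapped.

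The log2 fold change between groups was -0.11 for SREBF2 (standard error 0.24, 95% interval -0.66 to 0.44, adjusted p = 0.809, edgeR) and -0.39 for INSIG1 (standard error 0.28, 95% interval -1.04 to 0.26, adjusted p = 0.417, edgeR). The log2 ratio of replicate 2 to replicate 1 was -0.38 in Ctrl and -0.71 in shSTAU1 for SREBF2, and -0.42 and -0.75 for INSIG1. Both values depended on which library was left out. Without shSTAU1 replicate 1 the log2 fold changes were -0.50 for SREBF2 and -0.80 for INSIG1. Without shSTAU1 replicate 2 they were 0.19 and -0.075, and without Ctrl replicate 1 the value of SREBF2 was 0.083.

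Replicate 2 lay below replicate 1 in both groups for 5 of the 8 members, HMGCS1, FDFT1, FDPS, INSIG1 and SREBF2, beside 32.5% of all tested genes. It lay above in both groups for AACS alone, by log2 ratios of 0.0037 and 0.0046, beside 31.4% of all tested genes. Ratios at least as low as those of SREBF2 in both groups were found in 5.48% of all tested genes, INSIG1 among them. The replicate numbers are shared between the groups, but the labels do not say what they mark.

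The other genes of the pathway were read from lists set up by known function. Of 15 other enzymes of sterol synthesis, 1 was lower past the threshold and 0 were higher, beside 1.48% and 1.13% of all tested genes. At an unadjusted p under 0.05 in edgeR, 4 were lower and 0 higher, beside 11.6% and 12.9% of all tested genes. Log2 fold changes lay below 0 in 12 of the 15. The median of the 15 was -0.18, beside 0.0059 over all tested genes, of which 49.6% lay below 0. In 6 of the 15 both shSTAU1 libraries lay below both Ctrl libraries, and in 2 they lay above, beside 28% and 28.5% of all tested genes.

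The enzyme past the threshold acts at the end of the pathway. DHCR7 (ENSG00000172893, chromosome 11 from 71428193 to 71452868, minus strand), which reduces 7-dehydrocholesterol to cholesterol, had 196 and 181 CPM in Ctrl and 126 and 110 CPM in shSTAU1, so the groups did not overlap. It was at 62.7% of the control level (log2 fold change -0.67, standard error 0.13, adjusted p = 0.0489, edgeR's quasi-likelihood test). The log2 fold change was -0.62 without Ctrl replicate 1, a fit in which no gene passed, STAU1 included, and whose smallest adjusted p was 0.49. It was -0.73 without Ctrl replicate 2 (adjusted p = 0.198) and -0.68 with no filter on low counts (adjusted p = 0.116), so the call was lost while the value stayed similar. The highest value of this list, that of the sterol reductase TM7SF2, was 0.52 (standard error 0.33, adjusted p = 0.36, edgeR) at 71 to 131 counts.

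Of 13 genes of sterol uptake, transport and storage, 12 were tested. Past the threshold, 1 was lower and 0 were higher, beside 1.48% and 1.13% of all tested genes. LRP8 (ENSG00000157193, chromosome 1 from 53242364 to 53328070, minus strand), a receptor for lipoproteins and reelin, had 70.3 and 60.0 CPM in Ctrl and 38.3 and 26.8 CPM in shSTAU1. The difference between the groups on the log2 scale was -1.0 (standard error of 0.20 and adjusted p = 0.048, edgeR's quasi-likelihood test), with no overlap between the groups. The call was lost after the correction for length and GC content (-0.88, adjusted p = 0.0586), with no filter (-1.01, adjusted p = 0.126) and without Ctrl replicate 2 (-1.11, adjusted p = 0.102), and the value was -0.89 without Ctrl replicate 1, where no gene passed. The median of this list was -0.31, with 10 of 12 below 0, beside 49.6% of all tested genes. At an unadjusted p under 0.05 in edgeR, 3 were lower and 0 higher, beside 11.6% and 12.9% of all tested genes. In 3 of the 12 both shSTAU1 libraries lay below both Ctrl libraries and in 1 above, beside 28% and 28.5%. SCARB1, the receptor for high-density lipoprotein, lay at 163 to 172 CPM in all libraries, and VLDLR had 0 to 10 counts and was not tested. SCARB1 and VLDLR were chosen after their values were seen. The lysosomal sterol carrier NPC2 had the highest value of the list, 0.23 (adjusted p = 0.372, edgeR), and the sterol exporter ABCG1 the lowest, -1.73 (adjusted p = 0.192, edgeR).

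**Figure D3:**
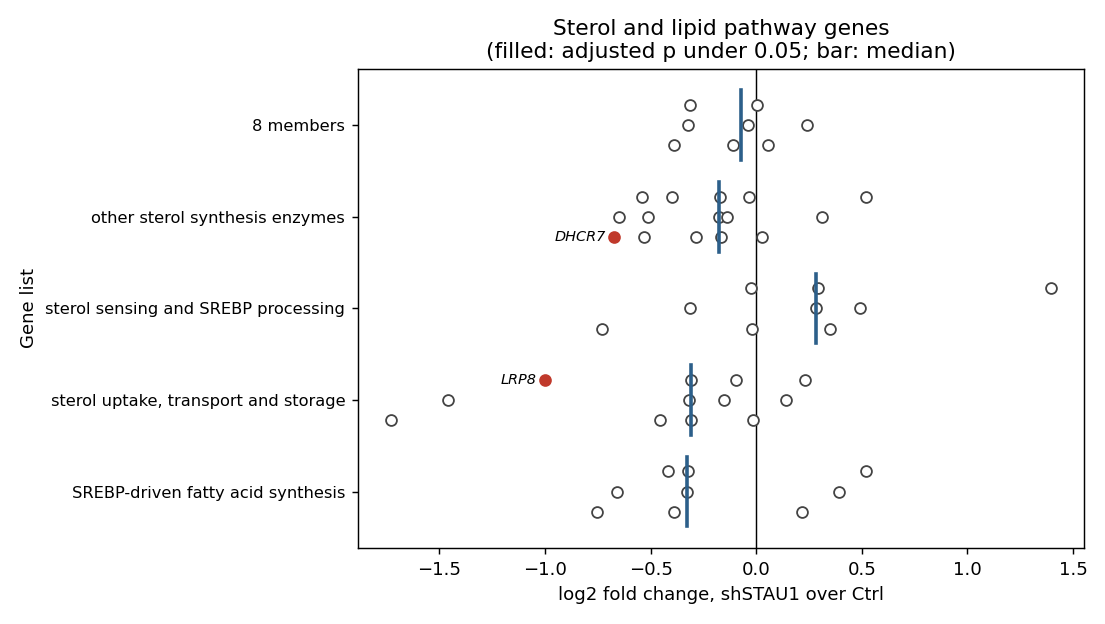
Log2 fold change of every tested gene in the 5 lists, shSTAU1 over Ctrl, 1 point per gene, with filled points past an adjusted p of 0.05 and a bar at the median of each list. The filled points are DHCR7 and LRP8, and no member is filled.

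Of 9 genes of sterol sensing and SREBP processing, 0 passed the threshold in edgeR, beside 2.60% of all tested genes. The median log2 fold change of the list was 0.28, with 5 above 0. In 3 of the 9 both shSTAU1 libraries lay above both Ctrl libraries and in 2 below, beside 28.5% and 28% of all genes. At an unadjusted p under 0.05, 3 were higher and 1 was lower, beside 12.9% and 11.6% of all tested genes. The escort protein gene SCAP lay at 94.8 to 111 CPM over the libraries and the protease gene MBTPS2 at 89.0 to 95.8 CPM, without separation of the groups. The protease MBTPS1, which makes the first cut in SREBPs, had 65.5 and 71.9 CPM in Ctrl and 108 and 85.1 CPM in shSTAU1 (log2 fold change 0.49, adjusted p = 0.114, edgeR). SCAP, MBTPS1 and MBTPS2 were chosen after their values were seen. The highest value was that of the oxysterol receptor NR1H3, 1.39 (standard error 0.53, adjusted p = 0.16, edgeR), at 30 and 69 counts in Ctrl and 188 and 88 in shSTAU1. The lowest was that of SREBF1, the paralog of SREBF2 that favours fatty acid synthesis, with 153 and 125 CPM in Ctrl and 111 and 55.8 CPM in shSTAU1 (log2 fold change -0.73, adjusted p = 0.177, edgeR).

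Of 9 genes of SREBP-driven fatty acid synthesis, 0 passed in edgeR. The median was -0.33, with 6 below 0, beside 49.6% of all tested genes. At an unadjusted p under 0.05, 1 was higher and 2 were lower, beside 12.9% and 11.6% of all tested genes. In 3 of the 9 both shSTAU1 libraries lay above both Ctrl libraries and in 4 below, beside 28.5% and 28% of all genes. ACLY, which supplies cytosolic acetyl-CoA to both sterol and fatty acid synthesis, gave the highest value, with 234 and 218 CPM in Ctrl and 314 and 333 CPM in shSTAU1 (log2 fold change 0.52, standard error 0.12, adjusted p = 0.0654, edgeR). The desaturase SCD gave the lowest, with 374 and 194 CPM in Ctrl and 226 and 110 CPM in shSTAU1 (log2 fold change -0.76, standard error 0.38, adjusted p = 0.261, edgeR), and its groups overlapped. DESeq2 called 5 genes over the 4 lists, 1 higher and 4 lower, where edgeR called 2, and the share of all genes called was 10.1% and 2.60%. The higher gene was ACLY (adjusted p = 0.015, DESeq2). The lower genes were DHCR7, LRP8, SREBF1 (adjusted p = 0.0396, DESeq2) and LPIN1 (adjusted p = 0.00463, DESeq2). In edgeR LPIN1 had a log2 fold change of -0.66 (adjusted p = 0.0544). LPIN1 was named after its values were seen.

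**Figure D4:**
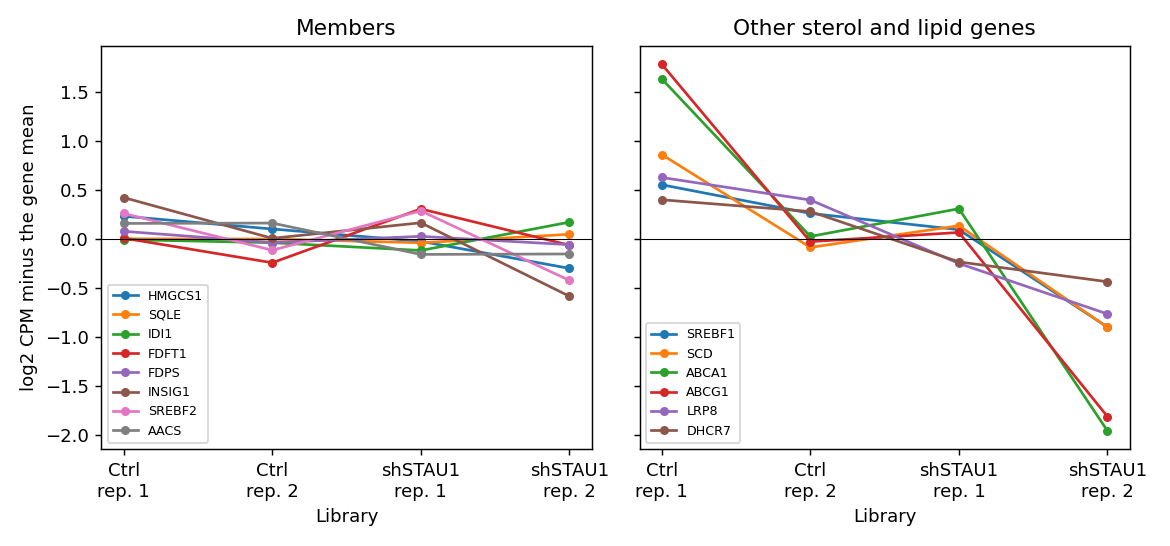
Log2 CPM minus the gene's mean over the 4 libraries, for the 8 members (left) and 6 other sterol and lipid genes (right), with a line joining the values of 1 gene. INSIG1 and SREBF2 drop in replicate 2 of both groups, AACS steps down between the groups, and ABCA1 and ABCG1 span the widest range.

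The mean profile of the 8 members over the 4 libraries was 0.14 and -0.018 in Ctrl and 0.05 and -0.17 in shSTAU1, in log2 CPM around each gene's mean. Among 4752 genes with a mean log2 CPM of at least 5 the nearest profiles were those of SDC1, KRT8P3, FARP2, ZNF609 and HTT, at Euclidean distances from 0.019 to 0.033. A distance under 0.1 was shared by 79 genes. No member lay that close to the mean profile, with distances from 0.132 for FDPS to 0.51 for INSIG1, so the mean profile stands for none of the 8 genes. KRT8P3 is a keratin pseudogene, on which reads of its parent gene could be counted.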

How the data were processed

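Counts per gene of the 4 libraries were analysed, prepared by the authors with the TruSeq RNA Exome kit. The deposited counts are whole numbers without normalization. The submitters' processing notes name Partek and hg38, and the aligner, the counting program and its strand setting are not given in the sources used here, so reads of the antisense genes that overlap FDPS, IDI1, HMGCS1, FDFT1 and SREBF2 (0 to 25 counts per library) may be counted on either gene. Positions, transcript lengths and GC content were taken from GENCODE 29 (GRCh38), which may not be the authors' release.

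The analysis used edgeR 4.0.16 (R 4.3.3), by filterByExpr, TMM scaling and the quasi-likelihood test across 14303 genes, with Benjamini-Hochberg adjustment over all of them and a threshold of 0.05. Standard errors were derived from the test statistic and intervals are 95%. The script was tested on simulated data. Replicate libraries were distinct, with a chi-square of 23.4 (Ctrl) and 56.4 (shSTAU1) for each degree of freedom. Alternatives were DESeq2 1.42.0, limma-voom 3.58.1, library totals replacing TMM, no filter, other thresholds, the replicate number as a block, a correction of each library's trend with transcript length and GC content (mgcv 1.9.3, covering 99.0% of tested genes), and leaving out each library. The members and lists were chosen with earlier results of these data known. Genes named are the 8 members, STAU1, the genes of each pathway list past the threshold and its highest and lowest, and the 5 nearest profiles. Others were named after their values were seen, as marked. Some genes of this pathway are not reported here, and the list counts cover the others.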

Additional observations from a re-analysis of the deposited data

How the results depend on the processing

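STAU1 kept its log2 fold change between -2.64 and -2.57 under all alternatives, and between -2.60 and -2.58 with 1 library left out, but without Ctrl replicate 1 no gene passed (smallest adjusted p = 0.49, edgeR's quasi-likelihood test). There a group with a lone library is assumed to vary like the other. The number of genes past the threshold, 372, was 1449 with DESeq2, 11 with no filter, 213 with the length and GC correction, 1585 at an adjusted p of 0.10 and 2098 by fold change 1.5 with an unadjusted p of 0.05. With 1 library left out it ran from 0 to 2780. The members called were 0 in the main fit and 0 under all of these except leaving out a library, which gave 0 to 3. Their median log2 fold change, -0.07, ran from -0.12 with library size in place of TMM to -0.076 with DESeq2 over the other fits to all 4 libraries, and from -0.19 to 0.0094 with 1 library left out. Of the other pathway genes 2 passed, and 5 with DESeq2, 0 with no filter, 1 with the length and GC correction, 4 at an adjusted p of 0.10, 7 by fold change and unadjusted p, and 0 to 13 with 1 library left out.

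The deviations of libraries with the same number had a correlation of 0.27, and the labels do not say that the number marks a batch. With the replicate block 4087 of 14303 genes passed, 2208 higher and 1879 lower. Adding the length and GC correction to the block gave 3667 of 14303. Beside these shares of all genes, the block called 2 of 8 members (HMGCS1, adjusted p = 0.0216, and AACS, adjusted p = 0.0365, edgeR). With the correction added it called 1 of 8 (HMGCS1, adjusted p = 0.0266, edgeR). All of these were lower. The other pathway genes called were 16 and 17 of 45.

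Values near 0 changed sign. SQLE went from 0.0045 to -0.048 with library size, -0.0020 with no filter, -0.018 with the length and GC correction and -0.019 with the block as well, and ran from -0.050 (without shSTAU1 replicate 2) to 0.058 with 1 library left out. So left out, FDPS ran from -0.089 to 0.017 (without Ctrl replicate 1), IDI1 from -0.11 (without shSTAU1 replicate 2) to 0.20, and SREBF2 from -0.50 to 0.083 (without Ctrl replicate 1) and 0.19 (without shSTAU1 replicate 2). Of the values of single genes other than STAU1 under an alternative, 108 kept both the sign and the outcome of the test. With the sign kept, 7 were no longer past the threshold and 6 were newly past it, and 9 had the other sign. The alternatives that change only the threshold reuse the fold changes of the main fit, so their signs could not differ. The causes were not tested. The low counts of FDFT1 and VLDLR limit what can be read from their values.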

Other observations

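ABCA1 and ABCG1, 2 sterol exporters that the oxysterol receptors NR1H2 and NR1H3 are known to drive, differed more between replicates than any of the 8 cholesterol genes did. ABCA1 was chosen after its values were seen. The sterol exporter ABCA1 had 186 and 60.9 CPM in Ctrl and 74.1 and 15.4 CPM in shSTAU1, so Ctrl replicate 2 lay below shSTAU1 replicate 1 and the groups overlapped. The log2 ratio of replicate 2 to replicate 1 was -1.61 in Ctrl and -2.27 in shSTAU1 for ABCA1, and -1.81 and -1.88 for ABCG1, which had 241 and 67 counts in Ctrl and 76 and 21 counts in shSTAU1. Between groups the log2 fold changes were -1.46 (standard error 0.71, adjusted p = 0.248) for ABCA1 and -1.73 (standard error 0.72, adjusted p = 0.192) for ABCG1 in edgeR's quasi-likelihood test.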
